A study of Mus musculus with 12 samples.

Results

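Regulatory T cells (Tregs) that infiltrated PyMT breast tumors were examined in single-cell RNA sequencing data of CD4/CD8-selected tumor cells. Foxp3 T cells were chosen by their unique molecular identifier (UMI) counts: at least 1 *Foxp3* UMI and at least 1 *Cd3e* UMI, with no UMI of *Cd8a* or *Csf1r*, in cells with at least 200 detected genes and less than 10% mitochondrial UMIs. Of 23101 barcodes, 19528 cells were kept and 73 were Foxp3 T cells. The cells used for comparison were 467 CD4 T cells without Foxp3 (*Cd4* and *Cd3e* of at least 1 UMI, no *Cd8a*, no *Foxp3*) and 12302 CD8 T cells (*Cd8a* and *Cd3e*, no *Cd4*, *Foxp3*, or *Csf1r*).

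The tumors arose in MMTV-PyMT mice, in which the polyoma middle T oncogene is driven in the mammary epithelium by a viral promoter, so all groups carried the transgene. PyMT-PAR2 WT mice carried the wild-type protease-activated receptor PAR2, and PyMT-PAR2 G37I mice a PAR2 mutant that coagulation factor Xa cannot cleave; each genotype had 3 CD4/CD8-selected samples, on the C57BL/6 background, with no further treatment. The labels give no age, and the methods state mid-size tumors for these cells. The cells were bead selected, frozen, and thawed before 10x Genomics libraries were made, and the matrix pools all 6 samples. Its barcodes name no sample. They fall into 6 stretches of alphabetical order, called barcode runs here, which were not linked to samples or genotypes. The matrix was therefore treated as 1 sample, the genotypes were not compared, and no test was run: intervals cover counting error only, and values per run are descriptive.

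Tregs are CD4 T cells that restrain other T cells, and the transcription factor Foxp3 sets up and maintains their program. They take up IL-2 through its high-affinity receptor, carry inhibitory and costimulatory receptors such as CTLA-4, OX40, and GITR, and need signals through the antigen receptor. In tissues and tumors, Tregs often take on an effector state with receptors for alarmins, the growth factor amphiregulin, and lower levels of the genes that mark resting, recirculating T cells.

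Sampling was thin, and the matrix was not uniform between runs. The Foxp3 T cells had a median of 5554 UMIs and 1961 genes, the CD4 T cells without Foxp3 4341 UMIs and 1580 genes, and the CD8 T cells 5026 UMIs. The whole group held 478208 UMIs, so that a gene with 0 UMIs could have a level of up to 6.27 CPM (the summed UMIs of that gene per 1000000 UMIs in the same cells). Filters left out 42.4% and 46.5% of the barcodes of runs 4 and 5, and 0% to 5.44% of the others. In the matrix 51 barcodes occurred more than once, none of them a Foxp3 T cell. No doublet caller was run, and the rule itself removed cells that combined *Foxp3* with *Cd8a* or *Csf1r*.

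*Foxp3* (chrX:7573644-7595245, GRCm38, plus strand) had at least 1 UMI in 210 cells with 200 or more genes, of which 27 were lost to the mitochondrial limit and 183 kept. Of the kept ones, 81 also had *Cd8a* (44.3%, Clopper-Pearson 95% interval 36.9% to 51.8%), a further 28 lacked *Cd3e*, 1 had *Csf1r* beside *Cd3e*, and the remaining 73 were the Foxp3 T cells. They held 164 of the 450 *Foxp3* UMIs (36.4%). At the threshold of the rule, 30 of them had a single *Foxp3* UMI, 15 had 2, and 28 had 3 or more, with a maximum of 7. Among 871 *Csf1r* cells without *Cd3e*, a population that should lack the gene and had a median of 18412 UMIs, 1 had a *Foxp3* UMI (0.115%, interval 0.00291% to 0.638%).

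Foxp3 T cells made up 0.374% of the kept cells (interval 0.293% to 0.470%) and 13.5% of the 540 cells that were either Foxp3 T cells or CD4 T cells without Foxp3 (interval 10.7% to 16.7%). By run, the counts were 28, 3, 2, 25, 10, and 5 cells. As shares of kept cells, these were 0.546%, 0.128%, 0.0593%, 1.22%, 0.539%, and 0.105% in runs 1 to 6. Runs 1 and 4 thus supplied 72.6% of the Foxp3 T cells, and the interval of run 4 (0.792% to 1.80%) lay above those of runs 1, 2, 3, and 6. Among Foxp3 T cells and CD4 T cells without Foxp3 the order differed, from 8.33% in run 3 to 27.8% in run 5. There the intervals of runs 1 and 4 (6.05% to 12.7% and 13.5% to 28.3%) did not overlap. These are not shares of all CD4 T cells. A *Cd4* UMI was required of the comparison cells but not of the Foxp3 T cells, of which 30 of 73 had one. CD4 T cells with neither a *Cd4* nor a *Foxp3* UMI were not counted. Run 1 held 38.4% of the Foxp3 T cells and 60.8% of the CD4 T cells without Foxp3, and run 4 held 34.2% and 21.2%. Ratios over all cells therefore mix the runs in different proportions in the groups compared.

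**Figure D1:**
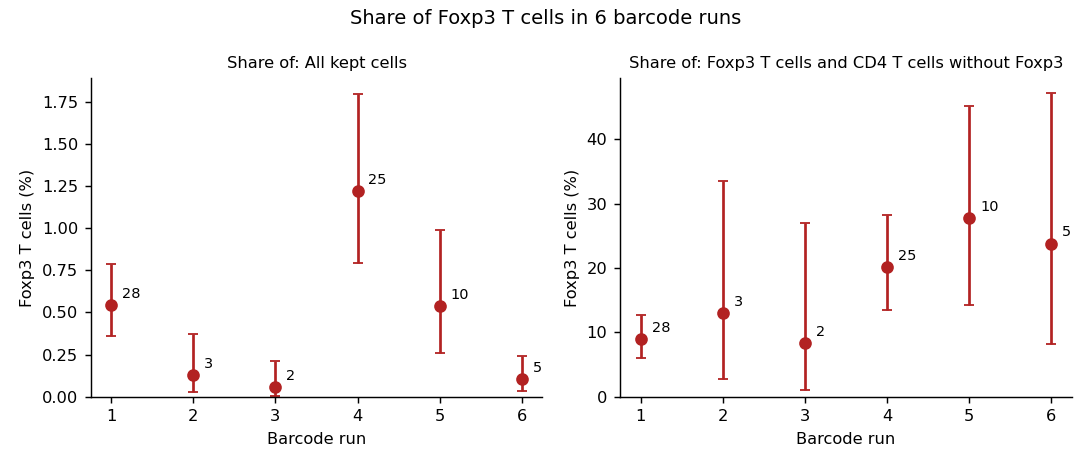
Share of Foxp3 T cells among all kept cells (left, percent) and among Foxp3 T cells and CD4 T cells without Foxp3 (right, percent) in each of 6 barcode runs. Points give the share, bars the 95% Clopper-Pearson interval, and numbers the count of Foxp3 T cells; run 4 is highest on the left with 1.22%, and run 5 on the right with 27.8%.

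The label was checked against genes that the rule did not use. All 10 common T cell genes, among them *Cd3d*, *Trac*, and *Lck*, lay within 2-fold of their level in CD4 T cells without Foxp3. *Cd4* itself, which the rule did not require, had a UMI in 30 of 73 cells (41.1%). *Cd8b1*, the partner chain of CD8 alpha, stood at 41.8 CPM against 32.9 CPM in CD4 T cells without Foxp3 and 754 CPM in CD8 T cells. None of 5 NK cell markers had a UMI, 4 of 6 B cell markers were at 0, and 3 cells had 10 or more UMIs over 12 macrophage markers. Because the rule allowed no *Cd8a* or *Csf1r* UMI, the low *Cd8b1* and macrophage-marker levels followed in part from it. They are no separate support for the label. Of 5 Treg genes (*Il2ra*, *Ikzf2*, *Ctla4*, *Tnfrsf4*, and *Tnfrsf18*), 40 of 73 cells had all 5, 20 had 4, and none had 0.

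The first comparison asked what differed between Foxp3 T cells and CD4 T cells in which no *Foxp3* UMI was captured. Because 30 of the 73 Foxp3 T cells had only 1 *Foxp3* UMI, the comparison cells may include Tregs whose *Foxp3* was missed. Of the 467 comparison cells, 334 had no UMI of *Il2ra* or *Ikzf2*. How many of the comparison cells were Tregs was not tested, so the ratios are not those of Tregs against conventional CD4 T cells. *Il2ra*, the TNF receptor family genes *Tnfrsf4*, *Tnfrsf9*, and *Tnfrsf18*, and the Ikaros family factors *Ikzf2* and *Ikzf4* were higher in Foxp3 T cells. So were *Il1rl1* and *Il1r2* of the IL-1 receptor family. Ligands of helper T cells (*Cd40lg*, *Tnfsf11*) and the resting T cell factor *Tcf7* were lower. Other members of these families, among them *Il2rb*, *Il2rg*, *Tnfrsf1b*, *Ikzf1*, and *Ikzf3*, differed by less than 2-fold. A gene was called when its ratio, with 1 UMI added to each sum, was at least 2 or at most 0.5 among the 5353 genes with a mean level of at least 20 CPM over both groups. Of these, 342 were called higher (6.39%, of which 287 had Poisson intervals that did not overlap) and 238 lower (4.45%, of which 213 did not overlap). The median log2 ratio over all tested genes was 0.13. These shares, 6.39% and 4.45%, and this median are the reference for the list counts given below for this comparison.

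**Figure D2:**
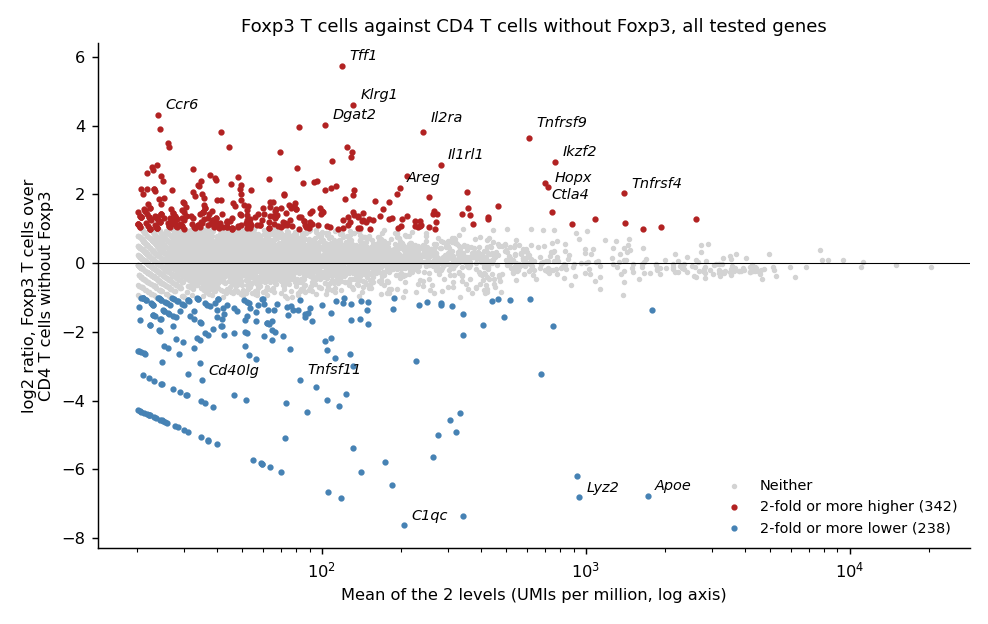
Log2 ratio of Foxp3 T cells over CD4 T cells without Foxp3 (vertical axis) against the mean of both levels (CPM, log axis) for the 5353 tested genes. Red points are the 342 genes called higher and blue points the 238 called lower; *Tff1* is highest, and the lowest points are macrophage genes such as *C1qc*, *Lyz2*, and *Apoe*.

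The lower side of this comparison has to be read with the makeup of the comparison cells. Among the 467 CD4 T cells without Foxp3, 20 had 10 or more macrophage-marker UMIs and held 99.1% of the 24945 such UMIs of the group. The summed level of the 12 markers was 10008 CPM in the group and 435 CPM in Foxp3 T cells. The rule excluded *Csf1r* from Foxp3 T cells but not from the comparison cells, 12 of which had a UMI of it. This gap was therefore set in part by the rule. The 12 lowest genes were *C1qc*, *C1qa*, *Cd63*, *Lyz2*, *Apoe*, *Wfdc17*, *Ccl4*, *Spp1*, *Pf4*, *Ccl8*, *Il1b*, and *Chil1*, mostly genes of macrophages. The comparison was therefore repeated with cells under 10 such UMIs and without *Csf1r* in both groups (70 and 447 cells). Then 370 of 5236 genes were called higher (7.07%) and 148 lower (2.83%). The calls given below held there unless stated otherwise.

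The Treg identity list had 19 genes besides *Foxp3*. Of the 16 that passed the level filter, 13 were called higher and none lower (median log2 ratio 2.02), against 6.39% called higher among all tested genes. *Il2ra* (CD25, the alpha chain of the IL-2 receptor; chr2:11642807-11693193) stood at 370.1, 552, 207, 649, 209.7, and 379 CPM in Foxp3 T cells of runs 1 to 6. In CD4 T cells without Foxp3, the corresponding levels were 24.8, 11.2, 4.26, 59.0, 65.3, and 36.3 CPM, and the groups of runs did not overlap. Over all cells the level was 452 CPM (interval 393 to 516) against 32.1 CPM (25.4 to 39.9), a 14.0-fold difference. *Il2ra* was found in 65.8% of Foxp3 T cells and 9.64% of the comparison cells, and after each cell was thinned to 2000 UMIs in 45.7% and 4.16%. In the *Csf1r* cells 2.41% had a UMI.

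The Ikaros family factors *Ikzf2* and *Ikzf4* were also higher, while *Ikzf1* and *Ikzf3* were not called. *Ikzf2* (Helios; chr1:69531214-69687245) ranged over runs from 1099.8 CPM in run 1 to 2481 CPM in run 3 in Foxp3 T cells, and from 51.1 to 457 CPM in the comparison cells. It was found in 68 of 73 Foxp3 T cells, and its overall level of 1359 CPM (interval 1257 to 1468) was 7.69-fold that of CD4 T cells without Foxp3. *Ikzf4* (Eos) was 10.4-fold higher, at 228 against 21.7 CPM, and higher in 6 of 6 runs.

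Inhibitory and costimulatory receptors made up much of the rest of the list. *Ctla4*, which competes with CD28 for B7 ligands (chr1:60887000-60915832), was at 1147, 1233, 207, 1555, 709.9, and 169 CPM in runs 1 to 6 of Foxp3 T cells, and at 223, 212, 85.2, 325, 268, and 109 CPM in the comparison cells. Foxp3 T cells were higher within each run, but the 2 lowest runs, with 2 and 5 cells, lay inside the range of the comparison cells. The overall ratio was 5.03 (1165 against 231 CPM). *Tnfrsf4* (OX40) was 4.09-fold and *Tnfrsf18* (GITR) 2.80-fold higher, the first in 6 of 6 runs and the second in 5 of 6. *Nrp1*, *Socs2*, and *Rgs1* passed the filter without a call, and *Rgs1* was lower in each run, at 945 against 1818 CPM. *Lrrc32*, *Gpr83*, and *Tigit* did not reach the level filter, and *Gpr83* had 0 UMIs.

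*Tnfrsf9* (4-1BB, a costimulatory receptor; chr4:150914562-150946102) was among the 12 highest genes. Its levels in runs 1 to 6 were 803, 1558, 1964, 1449, 1242, and 464 CPM in Foxp3 T cells and 65.5, 89.3, 34.1, 131, 274, and 36.3 CPM in the comparison cells, without overlap. It was found in 61 of 73 Foxp3 T cells (83.6%; 67.1% after thinning), in 15.4% of CD4 T cells without Foxp3 (8.53%), and in 2.41% of *Csf1r* cells (0.12%). The overall level was 12.4-fold higher (1131 CPM, interval 1038 to 1231, against 90.7 CPM).

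**Figure D3:**
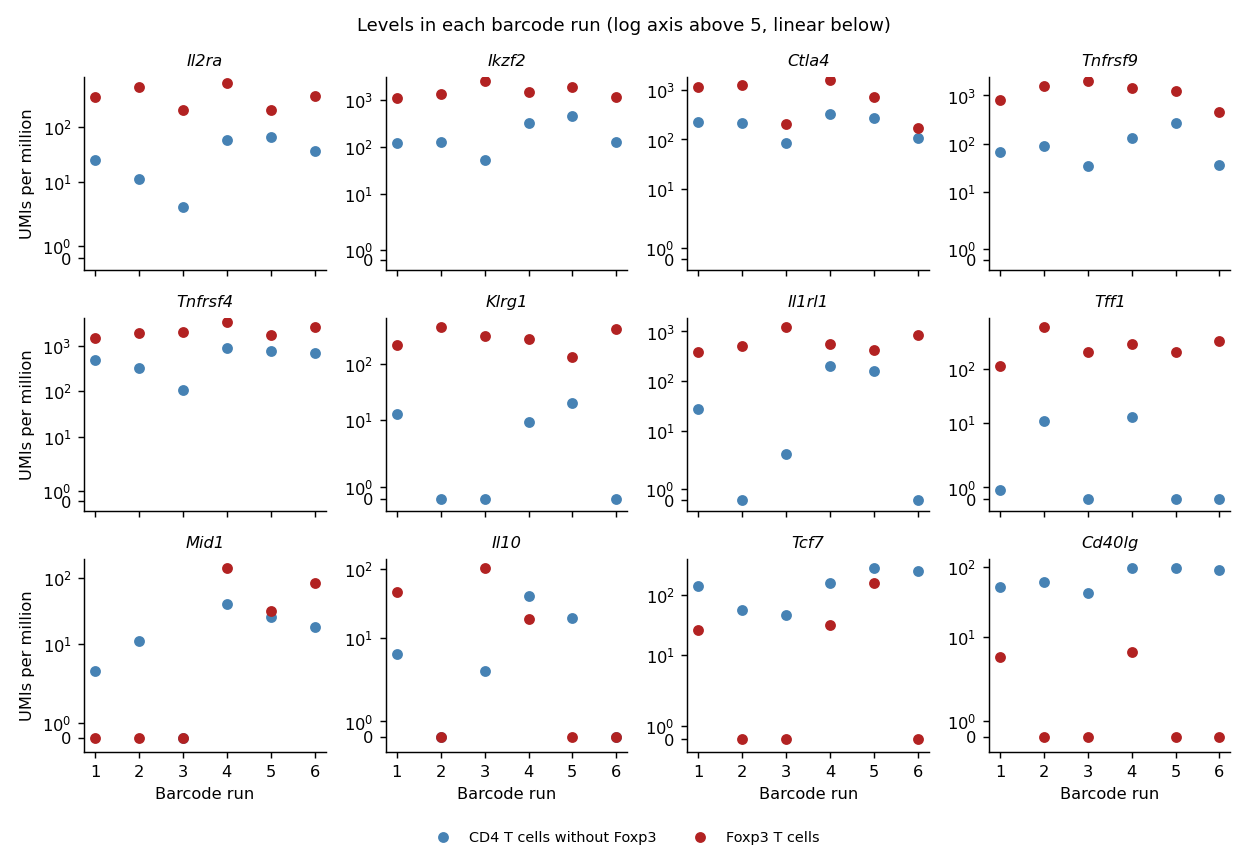
Levels of 12 genes (CPM, log axis above 5 and linear below) in each of 6 barcode runs, for Foxp3 T cells (red) and CD4 T cells without Foxp3 (blue). *Il2ra*, *Ikzf2*, *Ctla4*, *Tnfrsf9*, *Tnfrsf4*, *Klrg1*, *Il1rl1*, and *Tff1* are higher in Foxp3 T cells in all 6 runs, *Tcf7* and *Cd40lg* lower in all 6, and *Mid1* and *Il10* differ in direction between runs.

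Genes of effector Tregs followed. Of 19 that passed the filter, 12 were called higher and 1 lower (median log2 ratio 2.03). The lists share genes: *Tnfrsf9*, *Tnfrsf4*, and *Tnfrsf18* among these 12 were also counted in the Treg identity list. *Klrg1*, an inhibitory receptor of terminally differentiated T and NK cells, ranged from 129 to 454 CPM over runs in Foxp3 T cells and from 0 to 19.6 CPM in the comparison cells, 24.5-fold higher overall. *Il1rl1* (ST2, the IL-33 receptor) was found in 45 of 73 Foxp3 T cells at 496 CPM against 67.8 CPM, and was higher in 6 of 6 runs. *Il1r2*, a decoy receptor for IL-1, was 7.90-fold higher. *Areg* (amphiregulin, an EGF receptor ligand) was 4.57-fold higher at 324 CPM. Its ratio was 4.57 within run 1 but 1.81 within run 4, where the comparison cells stood at 192 CPM.

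*Ebi3*, *Itgae* (CD103), *Hopx*, and *Batf* were 11.4-, 5.42-, 4.63-, and 4.37-fold higher. *Cxcr6*, a receptor of tissue-resident T cells, was the gene of this list called lower, by 2.24-fold (174 against 392 CPM). *Icos*, *Maf*, *Samsn1*, *Tnfrsf1b*, *Penk*, and *Gzmb* were not called, and *Maf* was lower in 6 of 6 runs. *Ccr8*, a chemokine receptor used to mark tumor Tregs, was sparse: 11 of 73 Foxp3 T cells had a UMI, at 25.1 CPM (interval 13.0 to 43.8) against 9.23 CPM, below the level filter. *Cd177* had 0 UMIs in both groups. The transcription factors *Prdm1* and *Irf4* were also below the level filter. They were lower in 4 and 3 of 6 runs and higher in 1 and 2.

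Mediators of suppression differed from gene to gene. Of 11 that passed the filter, 7 were called higher and none lower, and 5 with macrophage-marker cells left out. Among the 7, *Ebi3*, *Areg*, and *Il10* were also in the effector list, and *Itgb8* and *Ctla4* in the identity list. *Itgb8*, whose integrin activates TGF-beta, was 9.35-fold higher (125 against 13.2 CPM), and its partner chain *Itgav* 4.18-fold. *Tgfb1* itself was 1.56-fold higher, at 374 against 241 CPM, and was not called. *Il10*, the gene of an inhibitory cytokine, rested on 13 UMIs in 9 cells. Its level of 27.2 CPM was 2.08-fold that of the comparison cells, with overlapping intervals. Within run 1 the ratio was 7.69, and within run 4 it was 0.589; without macrophage-marker cells it was 1.80 and not called. *Fgl2* was at 2.03 and 1.98 in these comparisons. *Nt5e* (CD73) was 1.46-fold higher, and *Entpd1* (CD39) had 4 UMIs. *Gzmb* came from 5 Foxp3 T cells, 1 of which held 52.2% of its UMIs.

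Of 14 checkpoint and costimulatory receptors that passed the filter, 6 were called higher and none lower. Besides *Tnfrsf9*, *Ctla4*, *Tnfrsf4*, and *Tnfrsf18*, these were *Pdcd1* (PD-1), 2.58-fold higher at 303 CPM, and *Tnfrsf25*, 2.21-fold higher. The call of *Tnfrsf25* was lost without macrophage-marker cells (1.77). *Lag3* and *Havcr2* were near their level in the comparison cells, at 14.6 against 18.4 CPM and 16.7 against 22.9 CPM.

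Among transcription factors, 7 of 19 were called higher and none lower. *Gata3*, the factor of type 2 helper T cells, was 2.69-fold higher (397 against 148 CPM) and higher in 6 of 6 runs. *Batf*, *Tox*, *Stat5a*, *Nfil3*, and *Stat5b* were 4.37-, 2.65-, 2.61-, 2.19-, and 2.13-fold higher, and *Rora* 2.21-fold (1.90 and not called without macrophage-marker cells). *Tbx21* and *Bcl6*, factors of Th1 and follicular helper cells, were at 27.2 and 23 CPM and were not called. In the IL-2 and STAT5 pathway, 4 of 13 genes were called higher (*Il2ra*, *Stat5a*, *Stat5b*, and *Cish*, a target of STAT5 at 328 against 142 CPM). *Bcl2*, which protects T cells from apoptosis, was lower by 2.73-fold.

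Several genes of resting and recirculating T cells were lower. Of 10 that passed the filter, 4 were called lower (median log2 ratio -0.33). *Tcf7* (TCF-1; chr11:52252371-52283014) stood at 26.1, 0, 0, 31.2, 161, and 0 CPM in runs 1 to 6 of Foxp3 T cells, and at 140.0, 55.8, 46.9, 162, 287, and 254 CPM in the comparison cells. It was lower in each run, and overall by 3.23-fold. *Satb1* and *S1pr1*, the receptor that guides exit from tissues, were lower by 2.74- and 2.60-fold. *Ccr7*, a lymph node homing receptor, was 1.74-fold higher and not called, but 2.71-fold higher and called without macrophage-marker cells; with under 5% mitochondrial UMIs the ratio was 0.408, and 1 Foxp3 T cell held 35.0% of its 60 UMIs. *Lef1*, *Il7r*, and *Klf2* were not called.

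Helper T cell products were low. Of 9 cytokine genes that passed the filter, 5 were called lower and 2 (*Areg* and *Il10*) higher. *Cd40lg* (CD40 ligand) had 2 UMIs in Foxp3 T cells and 164 in the comparison cells, at 4.18 and 65.8 CPM. *Tnfsf11* (RANKL) was lower by 10.5-fold, *Ifng* by 3.38-fold, *Tnf* by 2.56-fold, and *Tnfsf8* by 2.51-fold. *Cd40lg*, *Tnfsf11*, *Tnf*, and *Tnfsf8* were lower in 6 of 6 runs and *Ifng* in 5 of 6, and 1 Foxp3 T cell held 62.5% of the *Ifng* UMIs. *Il2*, *Il4*, and *Il17a* had 1, 1, and 0 UMIs in Foxp3 T cells. *Ltb* (lymphotoxin beta) stood at 914 against 465 CPM and was not called.

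Chemokine receptors and responses to antigen receptor signals differed in few members. Of 10 chemokine and lipid receptors, *Ccr6* (22 and 5 UMIs in all) was called higher and *S1pr1* and *Cxcr6* lower. Without macrophage-marker cells *Ccr6* did not reach the level filter. *Ccr2*, *Ccr4*, *Cxcr3*, and *Cxcr4* were not called. Of 15 genes that respond to antigen receptor signaling, *Rel* and *Nfkbia* of the NF-kappaB pathway were higher (3.02- and 2.43-fold) and *Egr1* lower (2.07-fold), while *Nr4a1* and *Cd69* were 1.46- and 1.34-fold higher and not called. None of 12 glycolysis genes was called, although *Tpi1* was at 1.95 and reached 2.24 without macrophage-marker cells. Among 12 cycling genes, the histone gene *H2afz* was higher (2.41-fold), and *Mki67* was found in 8 Foxp3 T cells, 1 of which held more than all others together. Over all tested genes 6.39% were called higher, so 1 such call in a list of 10 or 12 genes is near that share.

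Cytotoxic genes were lower for the most part, with 7 of 10 called lower and 1 higher. *Gzmk*, *Fasl*, *Klrd1*, *Klrk1*, and *Nkg7* were lower by 4.25-, 4.0-, 2.85-, 2.61-, and 2.36-fold. *Ccl4* and *Ccl3* had 1 and 0 UMIs, and their levels in the comparison cells lay largely in the cells with macrophage markers (911 *Ccl4* UMIs with these cells and 107 without). *Cst7* was called higher at 2.07 and not called without those cells at 1.80. *Ccl5* was at 1133 against 1665 CPM and was not called.

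Among 13 interferon-induced genes that passed the filter, 4 were called lower and 1 higher, against 4.45% and 6.39% over all tested genes. The lower ones were *Rsad2* (3.54-fold), *Ifit3* (3.11-fold), *Ifit1* (2.60-fold), and *Irf7* (2.59-fold), joined by *Gbp2* without macrophage-marker cells, and the list had a median log2 ratio of -0.73. *Mid1*, an X-linked gene for a ubiquitin ligase, was called higher (56.5 against 14.0 CPM), but its levels depended on the run. In Foxp3 T cells it had no UMI in runs 1, 2, and 3, and 23, 2, and 2 UMIs in runs 4, 5, and 6. In the comparison cells it stood at 4.52, 11.2, 0, 40.6, 26.1, and 18.2 CPM, so that runs 4 to 6 were higher in both groups. Within run 4 the ratio was 3.53, and 11 of the 15 Foxp3 T cells with *Mid1* were there. The receptor chains *Ifnar1* and *Ifnar2* were at 134 against 104 and 35.5 against 58.2 CPM and were not called, and *Ifi208* had 2 UMIs.

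The highest genes outside these lists were led by *Tff1* (trefoil factor 1, a secreted protein known from mucosal epithelium; chr17:31161395-31165277). Its levels over runs 1 to 6 were 115, 617, 207, 300, 209.7, and 337 CPM in Foxp3 T cells and 0.753, 11.2, 0, 12.9, 0, and 0 CPM in the comparison cells. The 112 UMIs came from 15 cells, 9 of them in run 4, and the ratio was 53.5 (interval 30.6 to 125). It was found in 1.28% of CD4 T cells without Foxp3 and in none of 871 *Csf1r* cells, which allows up to 0.344% of cells with a UMI. Summed over 7 markers of tumor epithelium, Foxp3 T cells were at 199 CPM and the comparison cells at 497 CPM, with 78.2 against 679.7 CPM in run 1. Without run 1 the sums were 279 and 289 CPM, and in run 4 they were 337 and 280.4 CPM. *Epcam*, one of these markers, was 3.01-fold higher in Foxp3 T cells than in CD8 T cells. The part of epithelial RNA in the *Tff1* level was not tested. Of the 15 cells with *Tff1*, 11 had *Il1r2* and 14 had *Pdcd1*, against 13 and 33 of the 58 without *Tff1*; their median UMI counts were 6786 and 5147.

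*Dgat2*, an enzyme of triglyceride synthesis, was 16.3-fold higher and found in 30 cells. *Pcsk1*, a prohormone convertase, *Ptpn5*, a tyrosine phosphatase, and *Neb* (nebulin) were 15-, 14.1-, and 10.4-fold higher, in 10, 16, and 19 cells. *Igkc*, the immunoglobulin kappa constant gene, was 15.6-fold higher, but came from 13 cells, 1 of which held 27.0% of its 74 UMIs. *Ighm*, the immunoglobulin mu chain gene, was also called higher, at 161 against 30.9 CPM in 31 cells and in 4 of 6 runs, while 4 of 6 B cell markers were at 0.

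Without the cells rich in macrophage markers, the highest genes included *Tff1*, *Klrg1*, *Dgat2*, *Cd74*, *Cd83*, *Ptpn5*, *Il1r2*, *Ebi3*, *Il2ra*, *Tnfrsf9*, and *Pcyt1a*. *Cd74*, the invariant chain of MHC class II, had been called lower in the full comparison (326 against 1173 CPM) and was at 275 against 17.2 CPM here; it is one of the 12 markers that chose which cells were left out, so this ratio was set in part by that choice, while *H2-Aa* and *H2-Ab1* had 2 UMIs each in these Foxp3 T cells. The lowest genes were *Serpinb1a* and *Ifitm1*, with 0 UMIs and levels at least 10.8- and 8.77-fold lower, followed by *Pde3b*, *Calca*, *Hspa1a*, *Ccl4*, *Tnfsf11*, *Cd40lg*, *Spsb1*, *Csn3*, *Ehd3*, and *Itga1*. *Ifitm1* lay in 6 of the 447 comparison cells, whereas *Pde3b*, a phosphodiesterase, was found in 108. 1 comparison cell held 89.3% of the *Csn3* UMIs, and *Csn3* was higher in Foxp3 T cells in 4 of 6 runs.

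The second comparison, with CD8 T cells, placed these genes against the main T cell population of the selected cells. Of 5270 genes, 566 were called higher (10.7%) and 207 lower (3.93%). In the Treg identity list 15 of 16 were called higher, with *Tnfrsf4* 90.0-fold, *Il2ra* 63.8-fold, *Ctla4* 10.9-fold, and *Ikzf2* 7.01-fold higher. The highest ratios, for *Pcsk1*, *Il1r2*, *Itgb8*, *Ccr6*, *Tff1*, *Il1rl1*, *Ebi3*, and *Dgat2*, ranged from 199 to 602, all with less than 2 CPM in CD8 T cells. These genes passed the level filter only through Foxp3 T cells, where *Pcsk1* and *Ccr6* had 22 UMIs each. The size of such ratios depends on the very low level in CD8 T cells. *Tnfrsf9* was at 85.1 CPM in CD8 T cells, close to its level in CD4 T cells without Foxp3.

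All 11 cytotoxic genes that passed the filter were lower. *Gzma* had 0 UMIs, against 445 CPM in CD8 T cells, and was at least 70.9-fold lower. *Prf1* (perforin), *Gzmk*, *Nkg7*, *Gzmb*, and *Ccl5* were lower by 10.4-, 12.4-, 11.6-, 7.48-, and 6.36-fold. *Eomes*, a factor of cytotoxic T cells, was at least 16.9-fold lower, and *Tbx21* was lower by 2.21-fold. The other genes among the 8 lowest were *Bend4*, *Ccl4*, *Pde3b*, *Cd160*, *Klre1*, and *Car2*. Of the T helper transcription factors, 12 of 21 were higher, among them *Rora* (8.68-fold), *Gata3* (6.49-fold), *Hif1a* (5.93-fold), and *Maf* (5.05-fold). *Itgae* (107 against 76.9 CPM) and *Cxcr6* were not called.

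**Figure D4:**
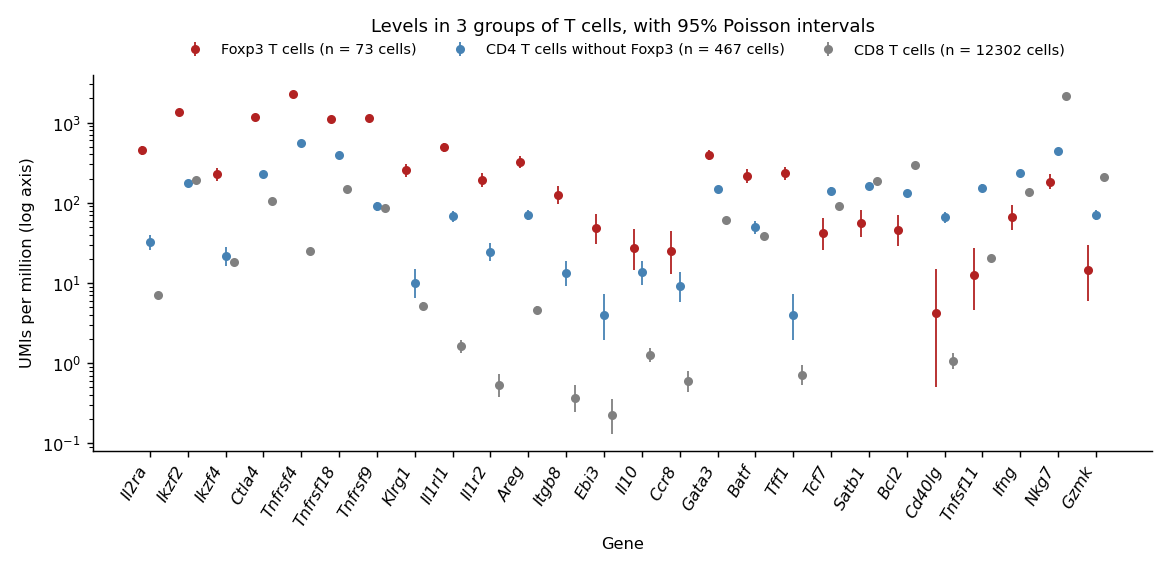
Levels of 26 genes (CPM, log axis) in Foxp3 T cells (red, 73 cells), CD4 T cells without Foxp3 (blue, 467 cells), and CD8 T cells (gray, 12302 cells), with 95% Poisson intervals of the summed UMIs as bars. *Il2ra* falls from 452 to 32.1 and 7.10 CPM across the groups, and *Nkg7* rises from 184 to 438 and 2153 CPM.

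The receptors of the protease pathway that the study altered were sparse in Foxp3 T cells. *F2rl1* (PAR2) had 4 UMIs in 4 cells, at 8.36 CPM (interval 2.28 to 21.4), against 4.01 CPM in CD4 T cells without Foxp3 and 10.2 CPM in CD8 T cells. *F2r* (PAR1, the thrombin receptor) had 6 UMIs, at 12.5 CPM against 28.5 and 53.7 CPM, and was called lower than in CD8 T cells (3.67-fold) and, without macrophage-marker cells, than in CD4 T cells without Foxp3 (2.51-fold). *F2rl2* and *F2rl3* had 0 UMIs.

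Foxp3 T cells also varied among themselves. UMIs of the 23 effector genes, which include *Tnfrsf4*, *Tnfrsf9*, and *Tnfrsf18* of the identity list, were summed per 10000 UMIs of the cell. They ranged from 14.2 to 247, with a median of 88.4, and in CD4 T cells without Foxp3 the median was 32.7. The middle 50% of both groups, 57.6 to 126 and 21.7 to 50.4, did not overlap, although the highest comparison cell reached 256. The 15 resting genes had medians of 7.77 and 10.1, and their ranges overlapped throughout. A Foxp3 T cell had a median of 10 effector genes detected, against 6 in the comparison cells, which had fewer UMIs per cell; the part of depth in this was not tested.

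**Figure D5:**
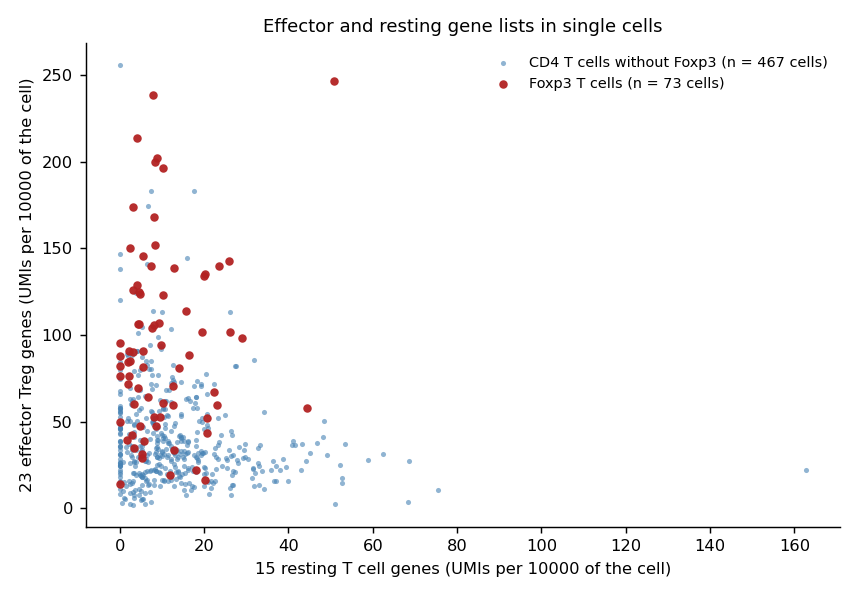
UMIs of 23 effector Treg genes (vertical axis) against 15 resting T cell genes (horizontal axis), both per 10000 UMIs of the cell, with 1 point per cell. The 73 Foxp3 T cells (red) have a median of 88.4 on the vertical axis against 32.7 for the 467 CD4 T cells without Foxp3 (blue), while the medians on the horizontal axis are 7.77 and 10.1.

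Cells with more *Foxp3* UMIs had higher levels of some of these genes. From the 30 cells with 1 *Foxp3* UMI to the 28 cells with 3 or more, *Ctla4* went from 796 CPM (interval 672 to 935) to 1472 CPM (1314 to 1644), *Klrg1* from 141 to 408 CPM, and *Areg* from 157 to 483 CPM. *Ikzf2* stayed at 1380 and 1378 CPM, and *Il2ra* went from 363 (281 to 461) to 497 CPM (407 to 601), with intervals that overlapped. *Tcf7* went from 75.8 to 18.7 CPM, on 14 and 4 UMIs. Cells with 1 *Foxp3* UMI, just inside the rule, were thus at 363 CPM of *Il2ra* and CD4 T cells with none at 32.1 CPM. The median UMI counts of the 2 sets of Foxp3 T cells were 5039 and 6280.

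Detection of effector genes overlapped in part. *Klrg1* was found in 26 of 45 Foxp3 T cells with *Il1rl1* (57.8%) and in 3 of 28 without it (10.7%). *Areg* was found in 53.3% and 35.7% of these cells, and *Tff1* in 9 and 6 of them. Cells with *Il1rl1* were deeper (median 6510 UMIs, against 4402), and the part of depth in these shares was not tested.

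The split by *Tnfrsf9* compared 61 Foxp3 T cells with a UMI of it and 12 without. The smaller set held 55979 UMIs in all, so that 1 UMI was worth 17.9 CPM, and its median depth was lower (3757 against 5816 UMIs). Of 5157 genes, 465 were called higher (9.02%) and 1095 lower (21.2%), but only 99 and 66 of these had intervals that did not overlap. Among the latter, *Gata3* was at 443 against 53.6 CPM, *Klrg1* at 282 against 35.7 CPM, *Pdcd1* at 332 against 89.3 CPM, *Tnfrsf4* at 2409 against 1036 CPM, and *Hopx* at 1272 against 500.2 CPM. *Icos*, *Ccl5*, *Nkg7*, and *Klf2* were lower in *Tnfrsf9*-positive cells, with *Ccl5* at 857 against 3215 CPM. *Il2ra* and *Ctla4* differed by less than their intervals, at 459 against 393 CPM and 1184 against 1018 CPM.

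Of the cycling genes, 6 of 10 were called higher and none lower in *Tnfrsf9*-positive cells. *Mki67* had 40 UMIs there and 0 in the other 12 cells, which makes its summed level at least 1.77-fold higher. These UMIs came from 8 of the 61 *Tnfrsf9*-positive cells, mostly from the cell noted above that held more than all others together. The 12 cells were also shallower, and whether the share of cycling cells differed was not tested. The 8 genes of highest ratio were *Rhof*, *Penk*, *Stx11*, *Dut*, *Swap70*, *Serpinb6a*, *Phc3*, and *Pdap1*, of which *Rhof* was at least 5.57-fold higher. Those of lowest ratio, among them *Gpr18*, *Appl2*, *Inafm2*, *Maff*, *Sox4*, *Corin*, and *Gm20069*, rested on 3 or 4 UMIs each in the *Tnfrsf9*-negative cells.

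The *Foxp3* cells that the rule left out for *Cd8a* carried a related profile at lower levels. The 77 of them with *Cd3e* and without *Csf1r* had 284 CPM of *Il2ra*, 866 CPM of *Ikzf2*, and 713 CPM of *Tnfrsf9*, each between Foxp3 T cells and CD8 T cells. Their *Cd8b1* and *Nkg7* levels were 640.2 and 1585 CPM, against 754 and 2153 CPM in CD8 T cells. Their median of 8980 UMIs was above the 5554 of Foxp3 T cells and the 5026 of CD8 T cells. Whether they were doublets was not tested.

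T cell receptor variable genes were rarely captured. A *Trbv* gene had a UMI in 6 of 73 Foxp3 T cells, spread over 5 genes, and a *Trav* gene in 14, spread over 10 genes. The most frequent was *Trav4-4-dv10*, in 5 Foxp3 T cells and in 13 of the 467 comparison cells.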

How the data were processed

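Per the labels, CD4/CD8-selected tumor cells came from 3 samples of each genotype, PyMT-PAR2 WT and PyMT-PAR2 G37I, which the study's methods call independent replicates, and were run on the 10x Genomics platform. The authors deposited 1 matrix of raw UMI counts for all of these cells; the submitters' processing notes name Cell Ranger 3.0.2 and mm10. Per the file headers, barcodes carry no sample name.

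Cells were kept with at least 200 genes and less than 10% mitochondrial UMIs. UMIs of a group were summed and scaled to CPM, with exact 95% Poisson intervals; shares have Clopper-Pearson intervals, and a count of 0 was given the limit of 3 counts. Intervals cover counting error only. Ratios had 1 UMI added to each sum. A call needed a mean of at least 20 CPM and a ratio of at least 2 or at most 0.5, without the genes of the rule (*Foxp3*, *Cd3e*, *Cd4*, *Cd8a*, *Csf1r*). The calling script was tested on simulated data. For detection shares, cells were also thinned to 2000 UMIs. With 1 pooled matrix no test was run, and the planned test between genotypes was left out. Python 3.11.15, numpy 2.4.6, scipy 1.17.1, and pandas 2.3.3 were used; positions came from GENCODE M21 on GRCm38.

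Members, gene lists, and alternatives were chosen with earlier results of these data known. The genes named were, per list, those with the largest ratios and a fixed set of Treg and resting genes; over all genes, the 12 highest and lowest against CD4 T cells without Foxp3, and the 8 highest and lowest in the *Tnfrsf9* split; and T cell genes of the study. The 8 highest and lowest against CD8 T cells were added after their values were seen. *Ltb*, *F2r* and the other PAR genes, *Rgs1*, *Hif1a*, *Ighm*, *Epcam*, the variable genes, genes of the lists without a call, and those at or near 0 UMIs were also named, after their values were seen. Some genes covered by these rules are not reported here.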

Additional observations from a re-analysis of the deposited data

Results flagged for a closer look

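In the matrix of CD11c-selected cells, which entered none of the comparisons, the same rule found 5 Foxp3 T cells among 10187 kept cells (0.0491%, Clopper-Pearson 95% interval 0.0159% to 0.115%), in 2 barcode runs of that matrix. They had 18 *Foxp3* UMIs. All 5 had *Ctla4* and *Klrg1*, and 4 each had *Il2ra*, *Ikzf2*, *Tnfrsf9*, and *Il1rl1*. *Il2ra* stood at 583 CPM and *Tnfrsf9* at 635 CPM in these cells, and *Tff1* had 0 UMIs. These cells are listed here because they lie in data outside the comparisons above and exceed the limit that a count of 0 allows.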

How the results depend on the processing

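No paired analysis was possible because barcodes name no sample, so the replicate numbers of the labels could not be matched to cells. The share of Foxp3 T cells was 0.220% with at least 2 *Foxp3* UMIs, 0.274% with under 5% mitochondrial UMIs, 0.154% with *Cd4* required, and 0.275% to 0.461% when 1 barcode run was left out, lowest without run 4. Against CD4 T cells without Foxp3, the number of genes called higher was 535 with under 5% mitochondrial UMIs, 589 with *Cd4* required, 879 and 161 at a mean of at least 5 and 50 CPM, 813 after thinning, 565 within run 1, and 786 within run 4. The number called lower was 675 and 109 at 5 and 50 CPM and 148 without macrophage-marker cells. A mean over cells in place of summed UMIs gave 464 higher and 185 lower, against 342 and 238. Without 1 run, 347 to 503 were higher and 196 to 387 lower, most without run 1. Against CD8 T cells, 1270 and 279 were higher and 448 and 87 lower at 5 and 50 CPM, 991 were higher after thinning, and 1023 were higher and 312 lower within run 4; without 1 run, 565 to 762 were higher and 176 to 264 lower. In the *Tnfrsf9* split, 212 were higher and 2234 lower with at least 2 *Foxp3* UMIs, 105 and 2184 with *Cd4* required, 218 and 370 at 50 CPM, 255 and 2159 after thinning, 99 and 66 with intervals that did not overlap, and 2142 were lower at 5 CPM. Without 1 run, 329 to 530 were higher and 1057 to 2253 lower, most without run 1. A level filter and fewer cells change how many genes are tested; other causes were not tested.

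Of 49 genes followed through up to 17 alternatives against CD4 T cells without Foxp3, 19 were at least 2-fold higher in each alternative, *Il2ra*, *Ikzf2*, *Ctla4*, *Tnfrsf4*, *Tnfrsf9*, *Klrg1*, *Il1rl1*, and *Tff1* among them, and 6 at least 2-fold lower, among them *Tcf7*, *Satb1*, *Cd40lg*, and *Tnfsf11*. *Il2ra* and *Ikzf2* were bound to be higher in 1 of these alternatives, which left out comparison cells with a UMI of either. The order of the 2 groups turned for *Ccr7*, which was not called, with under 5% mitochondrial UMIs (0.408), for *Il10* without run 1 (0.753) and within run 4 (0.589; it was 5.19 without run 4), and for *Mid1* within run 1 (0.989, on 0 and 6 UMIs). It also turned for *Chil1* with under 5% mitochondrial UMIs (1.51), *Ccl8* without macrophage-marker cells (1.35), *Apoe* within run 1 (2.31), and *Spp1* within run 4 (1.35). The within-run settings, the macrophage-marker setting, and the one on intervals were chosen after seeing the data.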
